A study of Mus musculus with 2 samples.

Results

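The 8 genes that carry, amplify or restrain the response to type I interferon, described here, are the receptor chains Ifnar1 and Ifnar2, the signal transducers Stat2 and Irf9, the interferon regulatory factors Irf7, Irf1 and Irf8, and the feedback inhibitor Usp18. They were chosen by name, as 8 of the 32285 genes counted in both libraries, and each had UMIs in both. The cells were CD45-positive cells sorted from subcutaneous tumours of MOC2, a mouse oral carcinoma line, grown in female C57BL/6 mice of 6 to 7 weeks. By its title the study asked about macrophages and B lymphocytes within the tumour. Mice of the first group were given Momordicine-I, a bitter melon triterpenoid, intraperitoneally each day at 30 mg/kg, and mice of the second group received the vehicle, DMSO in a Captisol solution. Each library pooled the tumours of 3 mice, so there was 1 library per group, no replicate and no test, and every value compares these libraries.

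Type I interferons bind a receptor made of IFNAR1 and IFNAR2, which activates the kinases JAK1 and TYK2. STAT2 and IRF9 then act as parts of the complex ISGF3, which binds interferon-stimulated response elements of target genes. Among these targets are Irf7, a transcription factor that raises interferon production further, and Usp18, which binds IFNAR2 to dampen signalling and removes the ubiquitin-like protein ISG15 from its substrates. IRF1 is induced strongly by interferon gamma, and IRF8 is best known as a lineage factor of dendritic cells, monocytes and B cells.

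After filtering, 4370 cells with 40284090 UMIs remained in the Momordicine-I library, against 3364 cells with 33179710 UMIs in the vehicle library, and the median cell had 5002 and 5760 UMIs in these libraries. Cells were placed in a class by the number of distinct marker genes they expressed, and a name ending in "-like" stands for such a class. The numbers of cells with Momordicine-I and with vehicle were 2295 and 1603 neutrophil-like, 187 and 82 monocyte and macrophage-like, 91 and 55 dendritic-like, 84 and 216 B-like, 312 and 343 T-like, and 83 and 46 NK-like. The marker lists that define these 6 classes each took their largest share of UMIs in their own class, which the gate itself favours. Levels are counts of a gene scaled to 1000000 UMIs of the class (CPM), and a ratio is the Momordicine-I CPM over the vehicle CPM. Intervals are exact 95% intervals and cover counting error only: UMIs of 1 cell are not independent, and variation between mice is not in them. Lower or higher means by at least 1.5-fold, for genes with at least 20 UMIs over both libraries. The libraries shared 10 barcodes, 7 of them among the cells kept.

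Promoter windows of 4 members, for Irf1 and Irf8 the first start listed, are shown because each holds a motif of the pathway that these proteins serve. The sequences are the 250 bases before the RefSeq transcription start in GRCm38.p6, 5′ to 3′ along the strand of each gene (plus for all 4), and the capitals mark, in Stat2, a match to 2 copies of GAAA with 2 bases between them, the core of the interferon-stimulated response element, and matches to TTCNNNGAA, the palindrome that STAT dimers bind, in the other 3.
Stat2 chr10:128270248-128270497: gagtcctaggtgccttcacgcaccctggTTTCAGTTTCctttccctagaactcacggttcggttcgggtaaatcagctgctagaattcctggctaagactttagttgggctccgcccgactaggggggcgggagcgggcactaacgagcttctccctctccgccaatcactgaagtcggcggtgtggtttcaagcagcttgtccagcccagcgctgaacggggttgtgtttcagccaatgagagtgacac
Irf1 chr11:53769764-53770013: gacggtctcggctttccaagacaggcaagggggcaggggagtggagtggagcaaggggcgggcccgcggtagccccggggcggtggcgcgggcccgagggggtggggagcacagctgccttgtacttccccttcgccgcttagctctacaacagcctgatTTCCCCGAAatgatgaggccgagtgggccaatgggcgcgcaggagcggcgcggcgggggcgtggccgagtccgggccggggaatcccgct
Irf8 chr8:120736108-120736357: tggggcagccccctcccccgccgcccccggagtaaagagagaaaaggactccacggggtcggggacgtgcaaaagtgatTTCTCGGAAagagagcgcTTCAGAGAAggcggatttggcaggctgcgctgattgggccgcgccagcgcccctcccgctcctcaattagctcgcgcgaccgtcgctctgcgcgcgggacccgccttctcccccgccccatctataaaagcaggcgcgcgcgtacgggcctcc
Ifnar2 chr16:91372533-91372782: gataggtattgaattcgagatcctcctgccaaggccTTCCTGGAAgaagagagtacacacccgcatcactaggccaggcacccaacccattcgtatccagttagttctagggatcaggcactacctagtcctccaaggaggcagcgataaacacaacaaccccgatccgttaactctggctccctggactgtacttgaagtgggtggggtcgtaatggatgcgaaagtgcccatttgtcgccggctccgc
In Stat2 the match reads TTTCAGTTTC, the reverse complement of the doubled GAAA, and lies 222 to 213 bases before the start. The Irf1 match TTCCCCGAA lies 90 to 82 bases before the start. In Irf8, TTCTCGGAA and TTCAGAGAA lie 171 to 163 and 153 to 145 bases before it, and in Ifnar2 TTCCTGGAA lies 214 to 206 bases before it. Both strands were searched in 10 promoters of the 7 members that the RefSeq table holds: 4 held a match, and the other 6 (those of Irf7, Irf9 and Ifnar1 and the second starts of Irf1 and Irf8) held none. The motifs do not overlap in these windows. The doubled GAAA was in 978 of all 32851 promoters of the table (2.98%) and TTCNNNGAA in 2306 (7.02%). A match describes the letters of a window and is not a binding site.

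**Figure D1:**
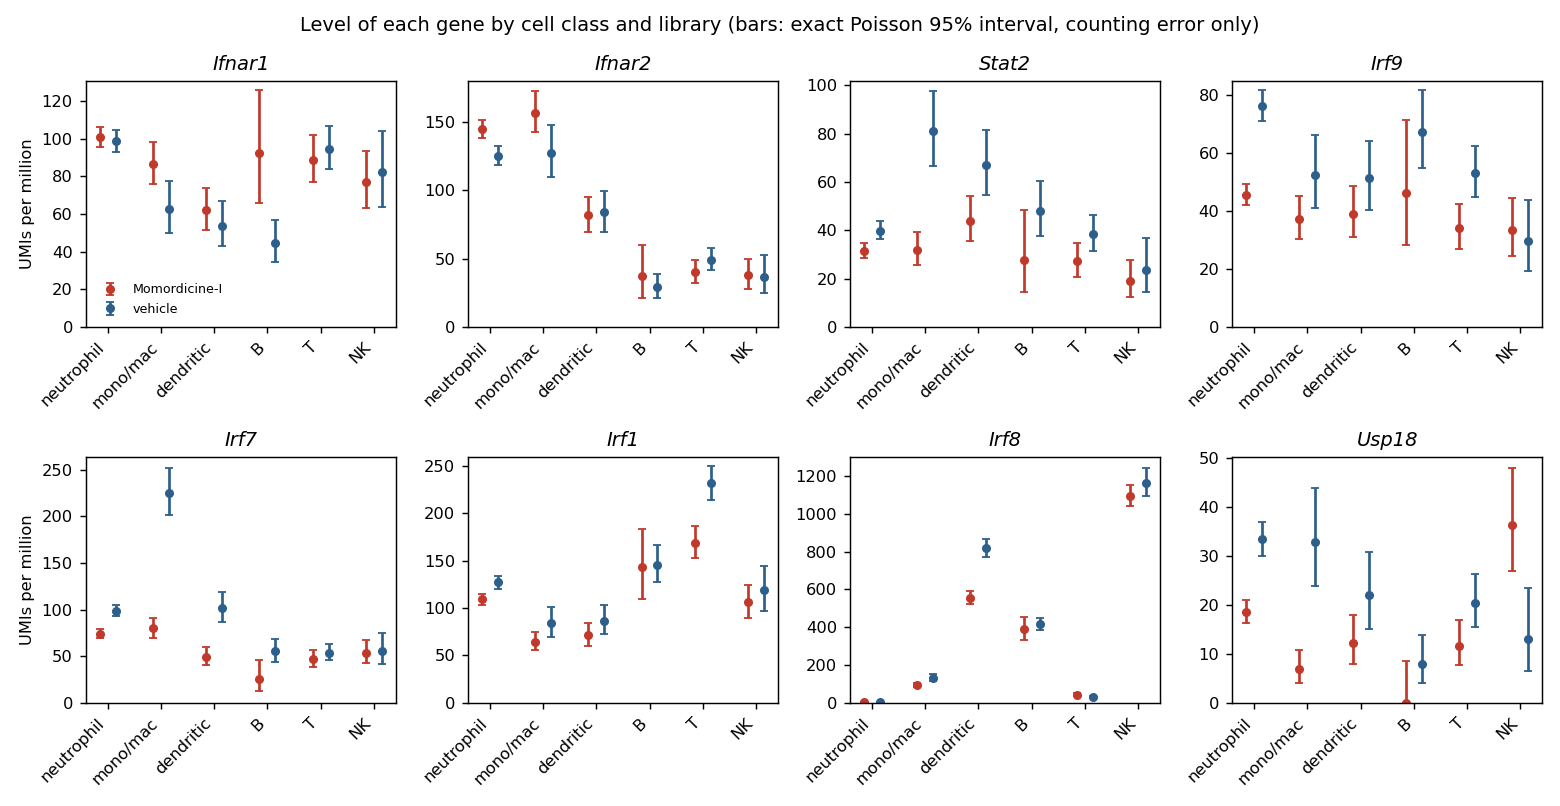
Level of each gene in 6 cell classes, in CPM (linear axes that start at 0 and differ between panels); red points are the Momordicine-I library, blue points the vehicle library, and bars are exact Poisson 95% intervals for counting error. Irf8 spans the widest range, with 1095 and 1164 CPM in NK-like cells and 4.96 and 4.62 CPM in neutrophil-like cells of both libraries, and Stat2 and Irf7 of monocyte and macrophage-like cells stand apart between libraries.

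The receptor chains were spread differently over the classes. Ifnar2, the chain that USP18 binds, was higher in the 3 myeloid classes than in the 3 lymphoid ones. It lies at chr16:91372783-91405589 (plus strand, GRCm38) and had 157 CPM in monocyte and macrophage-like, 145 CPM in neutrophil-like and 81.8 CPM in dendritic-like cells of the Momordicine-I library, where only the first 2 intervals overlapped. T-like, NK-like and B-like cells of that library had 40.2, 37.8 and 37.0 CPM, with overlapping intervals. The vehicle library had the same order, at 128, 125, 83.9, 49.3, 36.9 and 29.0 CPM, with no overlap of intervals between dendritic-like and T-like cells. Plasmacytoid dendritic-like cells had the most, 428 CPM with Momordicine-I (11 cells) and 361 CPM with vehicle (5 cells).

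Ifnar1, the other chain, lies at chr16:91485238-91507441 on the same strand. Plasmacytoid dendritic-like cells had the higher level here too, 380 CPM with Momordicine-I (11 cells) and 196 CPM with vehicle (5 cells). Among the classes plotted above, Ifnar1 was highest in neutrophil-like cells of both libraries. With Momordicine-I it ranged there between 62.2 CPM in dendritic-like and 101 CPM in neutrophil-like cells. With vehicle it ranged between 44.9 CPM in B-like and 98.8 CPM in neutrophil-like cells. The neutrophil-like interval overlapped those of B-like, T-like and monocyte and macrophage-like cells with Momordicine-I. With vehicle it overlapped those of T-like and NK-like cells. Between libraries, neutrophil-like, dendritic-like, T-like and NK-like cells had Ifnar1 ratios of 1.02, 1.15, 0.94 and 0.94, with intervals that all included 1. Monocyte and macrophage-like cells had 86.4 CPM with Momordicine-I and 62.7 CPM with vehicle, a ratio of 1.38 (1.07 to 1.78), but the log2 ratio of 0.46 was -0.02 with classes from Leiden clusters and -0.39 with thinned cells. Of the classes plotted above, B-like cells alone were past 1.5-fold for Ifnar1. With Momordicine-I, 40 UMIs in 84 of these cells gave 92.6 CPM (66.2 to 126). With vehicle, 68 UMIs in 216 cells gave 44.9 CPM (34.8 to 56.9), a ratio of 2.06 (1.36 to 3.09). The share of B-like cells with an Ifnar1 UMI, after each cell was thinned to 2000 UMIs, was 19.0% and 10.7%. Ifnar2 in the same cells had a ratio of 1.28 (0.672 to 2.31), and in neutrophil-like cells it was at 145 CPM and 125 CPM (ratio 1.16, 1.08 to 1.24).

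Stat2 and Irf9, the partners in ISGF3, lay between 18.9 and 81.0 CPM in the 6 classes, and both had ratios below 1 over all filtered cells. Over the sum of all cells Stat2 (chr10:128270559-128292849, plus strand) was at 29.7 CPM with Momordicine-I and 43.5 CPM with vehicle (ratio 0.683, 0.632 to 0.738). Its window, with a match to the core of the response element, is printed above. Irf9 (chr14:55603571-55610030, plus strand) was at 37.6 CPM and 58.2 CPM (ratio 0.647, 0.604 to 0.692). Over these cells 2 of the 8 members, Irf9 and Usp18, were lower, beside 6.9% of 14930 genes, and none was higher, beside 6.78%. The median log2 ratio was -0.42 over the members and 0.03 over all genes. In such sums a change in the mix of cell types and a change in the level per cell cannot be told apart. The same holds for the sum of a class that pools several kinds of cells, such as monocyte and macrophage-like cells.

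By class, the partners differed most in different cells. Stat2 was at 32.0 CPM (25.6 to 39.4) in Momordicine-I and 81.0 CPM (66.6 to 97.5) in vehicle monocyte and macrophage-like cells, a ratio of 0.395 (0.295 to 0.527). A UMI of Stat2 was found in 25.7% of these cells with Momordicine-I and 41.5% with vehicle, and the log2 ratio of -1.34 was -1.17 without the cell that held the most UMIs in each library. Irf9 differed less in that class, at 37.4 CPM and 52.5 CPM (ratio 0.712, 0.522 to 0.976). In neutrophil-like cells it was the reverse. Irf9 was at 45.5 CPM (42.0 to 49.3) with Momordicine-I and 76.3 CPM (71.1 to 81.6) with vehicle there, a ratio of 0.597 (0.537 to 0.664), while Stat2 was at 31.6 CPM and 39.9 CPM (ratio 0.791, 0.689 to 0.907).

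In lymphoid cells Irf9 was lower in T-like cells and Stat2 in B-like cells. The other partner fell short of 1.5-fold in each, and the intervals of the partners' ratios overlapped in both classes. T-like cells had 34.1 CPM of Irf9 with Momordicine-I and 53.2 CPM with vehicle (ratio 0.642, 0.483 to 0.848), and 27.2 CPM and 38.4 CPM of Stat2 (ratio 0.709). B-like cells had 27.8 CPM of Stat2 with Momordicine-I and 48.2 CPM with vehicle (ratio 0.577), on 12 and 73 UMIs. The interval of 0.285 to 1.07 included 1. Their Irf9 was at 46.3 and 67.3 CPM (ratio 0.688, 0.403 to 1.12). NK-like cells had Irf9 and Stat2 ratios of 1.12 and 0.794, both with intervals that included 1. Irf9 overlaps the gene Rnf31 on the same strand in the annotation, so reads of their shared part could be counted for either.

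Irf7, the amplifier (chr7:141262706-141266481, minus strand), was highest in monocyte and macrophage-like cells of both libraries among the 6 classes, though with Momordicine-I the interval overlapped that of neutrophil-like cells. It had 79.9 CPM (69.7 to 91.2) there with Momordicine-I and 225 CPM (201 to 252) with vehicle, a ratio of 0.354 (0.297 to 0.423). A single vehicle cell held 74 of the 309 vehicle UMIs, and without the highest cell of each library the log2 ratio of -1.50 was -1.28. The shares of these cells with an Irf7 UMI were 31.0% and 54.9%, or 9.94% and 20.3% after thinning to 2000 UMIs. Neutrophil-like cells had 73.9 CPM with Momordicine-I and 98.8 CPM with vehicle (ratio 0.748, 0.685 to 0.817), and B-like cells 25.5 CPM and 55.4 CPM (ratio 0.459, 0.221 to 0.865). The B-like log2 ratio of -1.12 was -0.02 when cells over 5% mitochondrial UMIs were left out. T-like and NK-like cells had ratios of 0.874 and 0.961, with intervals that included 1.

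In dendritic-like cells the difference in Irf7 rested on 1 cell. The class had 49.4 CPM with Momordicine-I and 102 CPM with vehicle, a ratio of 0.486, but 1 of the 55 vehicle cells held 107 of the 153 vehicle UMIs. The same cell, with 35564 UMIs and 4 of the 6 cDC2 markers, held 48.5% of the Usp18, 24.8% of the Stat2 and 19.2% of the Irf1 UMIs of the vehicle class. Without the highest cell of each library the log2 ratio of Irf7 was 0.22 in place of -1.04, and those of Usp18 and Stat2 were -0.44 and -0.28 in place of -0.84 and -0.61. The share of dendritic-like cells with an Irf7 UMI was 25.3% and 27.3%.

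Irf1, the interferon gamma-induced factor (chr11:53770014-53778374, plus strand), ordered the classes alike in both libraries, with T-like cells first, then B-like, neutrophil-like, NK-like, dendritic-like and monocyte and macrophage-like cells. The range was 64.7 to 169 CPM with Momordicine-I and 83.9 to 232 CPM with vehicle, and the intervals of neighbours in this order overlapped, except between NK-like and dendritic-like cells with Momordicine-I and between T-like and B-like cells with vehicle. T-like cells had 169 CPM (152 to 186) with Momordicine-I and 232 CPM (214 to 250) with vehicle, a ratio of 0.729 (0.642 to 0.827). In the other 5 classes the ratio lay between 0.771 and 0.984. None of the 6 classes had Irf1 lower by 1.5-fold.

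**Figure D2:**
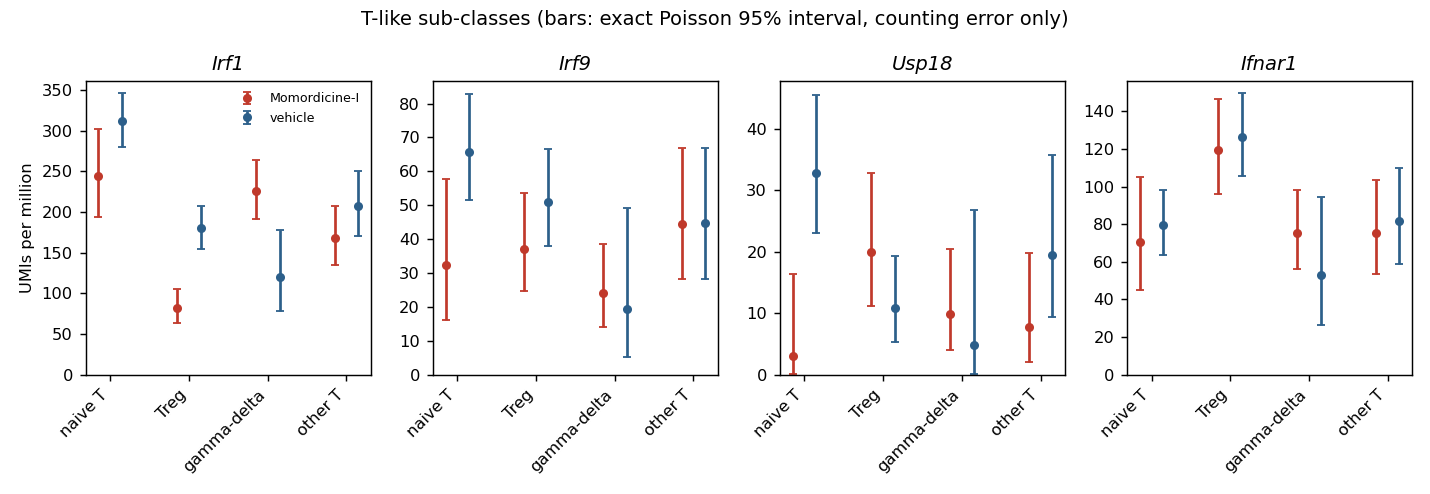
Levels of Irf1, Irf9, Usp18 and Ifnar1 in 4 sub-classes of T-like cells, in CPM on linear axes; red is the Momordicine-I library, blue the vehicle library, bars exact Poisson 95% intervals for counting error. For Irf1 the red point is below the blue one in Treg-like cells, at 82.1 and 180.1 CPM, and above it in gamma-delta-like cells, at 226 and 120.1 CPM.

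Within T-like cells the direction of Irf1 differed between sub-classes. Treg-like cells (85 with Momordicine-I, 99 with vehicle) had 82.1 CPM (63.0 to 105) and 180.1 CPM (155 to 208), a ratio of 0.456 (0.336 to 0.611). Gamma-delta-like cells (111 and 33) had 226 CPM (192 to 264) and 120.1 CPM (77.8 to 177), a ratio of 1.88 (1.23 to 2.99). Naive T-like cells (46 and 143) had the highest vehicle level, with 244 CPM and 312 CPM (ratio 0.782). Sub-class sizes differed between the libraries: gamma-delta markers made up 0.206% of T-like UMIs with Momordicine-I and 0.0550% with vehicle, and naive T markers 0.0511% and 0.111%. In the T-like ratios this mix and the levels within it cannot be told apart. Naive T-like cells also had the largest gap in Usp18, with 1 UMI in 46 cells and 36 UMIs in 143 cells (ratio 0.0895, 0.00220 to 0.531), and an Irf9 ratio of 0.492 (0.235 to 0.934).

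Irf8, the lineage factor (chr8:120736358-120756694, plus strand), was the most unequal of the 8 genes. NK-like cells had 1095 CPM with Momordicine-I and 1164 CPM with vehicle, dendritic-like cells 556 and 817 CPM, B-like cells 391 and 417 CPM, monocyte and macrophage-like cells 93.0 and 133 CPM, T-like cells 44.0 and 31.0 CPM, and neutrophil-like cells 4.96 and 4.62 CPM. This order was the same in both libraries. No interval of a class overlapped that of its neighbour in it. An Irf8 UMI was found in 2.61% and 2.68% of neutrophil-like cells (medians of 4553 and 5251 UMIs), and in 6.52% and 1.79% of basophil-like cells (46 and 56 cells, medians of 6214 and 7142.5 UMIs), and the part of free RNA in these shares was not tested. Plasmacytoid dendritic-like cells had the highest level, 2130 CPM (11 cells) and 2843 CPM (5 cells).

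Between libraries Irf8 of B-like and NK-like cells had ratios of 0.938 (0.787 to 1.11) and 0.941 (0.868 to 1.02). Dendritic-like cells had a ratio of 0.680 (0.627 to 0.738), and monocyte and macrophage-like cells 0.700 (0.577 to 0.852). cDC1-like cells (16 with Momordicine-I, 14 with vehicle) had 1472 and 1443 CPM, mature dendritic-like cells (23 and 15) 526 and 494 CPM, and cDC2-like cells (40 and 18) 96.2 and 60.9 CPM, with ratios of 1.02, 1.06 and 1.58. Cells that met more than 1 of these marker rules (12 and 8) had 679.8 and 1746 CPM, on 176 and 451 UMIs. cDC1 markers made up 0.0337% and 0.0648% of dendritic-like UMIs.

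Usp18, the inhibitor (chr6:121245906-121270917, plus strand), was the lowest of the 8 genes over all cells, at 14.7 CPM with Momordicine-I and 26.0 CPM with vehicle (ratio 0.564, 0.508 to 0.627). Among measured members it had the ratio farthest from 1 in neutrophil-like, monocyte and macrophage-like, T-like and NK-like cells. Neutrophil-like cells had 18.5 CPM (16.3 to 21.0) with Momordicine-I and 33.5 CPM (30.1 to 37.1) with vehicle, a ratio of 0.554 (0.469 to 0.654). A Usp18 UMI was found in 5.58% and 11.2% of them, or 2.45% and 5.63% after thinning to 2000 UMIs. In basophil-like cells 0 of 46 and 0 of 56 cells had one, with exact upper limits of 7.7% and 6.4%. Monocyte and macrophage-like cells had 6.90 CPM with Momordicine-I and 32.8 CPM with vehicle, a ratio of 0.210 (0.116 to 0.367) on 19 and 45 UMIs, and 1 vehicle cell held 37.8% of the vehicle UMIs. Without the highest cell of each library the log2 ratio of -2.25 was -1.91.

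NK-like cells went the other way for Usp18. They had 50 UMIs in 83 cells and 36.4 CPM (27.0 to 47.9) with Momordicine-I, against 11 UMIs in 46 cells and 13.1 CPM (6.54 to 23.4) with vehicle, a ratio of 2.78 (1.43 to 5.91). A Usp18 UMI was found in 28.9% and 19.6% of NK-like cells. This made NK-like cells the highest class for Usp18 with Momordicine-I and the fifth of 6 with vehicle. T-like cells had 11.7 CPM and 20.4 CPM (ratio 0.571, 0.348 to 0.916). Treg-like cells among them had the opposite sign, with a log2 ratio of 0.88. This value kept its sign in all 8 alternatives (0.42 to 1.25) and was higher by 1.5-fold in 7. In B-like cells no UMI was counted with Momordicine-I, against 12 UMIs (7.92 CPM) with vehicle. A UMI was found in 0 of 84 cells, with an exact upper limit of 4.3%, and in 5.09% of 216 cells. The interval of the ratio, 0 to 1.26, included 1, so a difference in level was not detectable at this depth. Usp18 overlaps Gm44148 on the opposite strand, and Irf7 overlaps Phrf1 on the opposite strand.

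**Figure D3:**
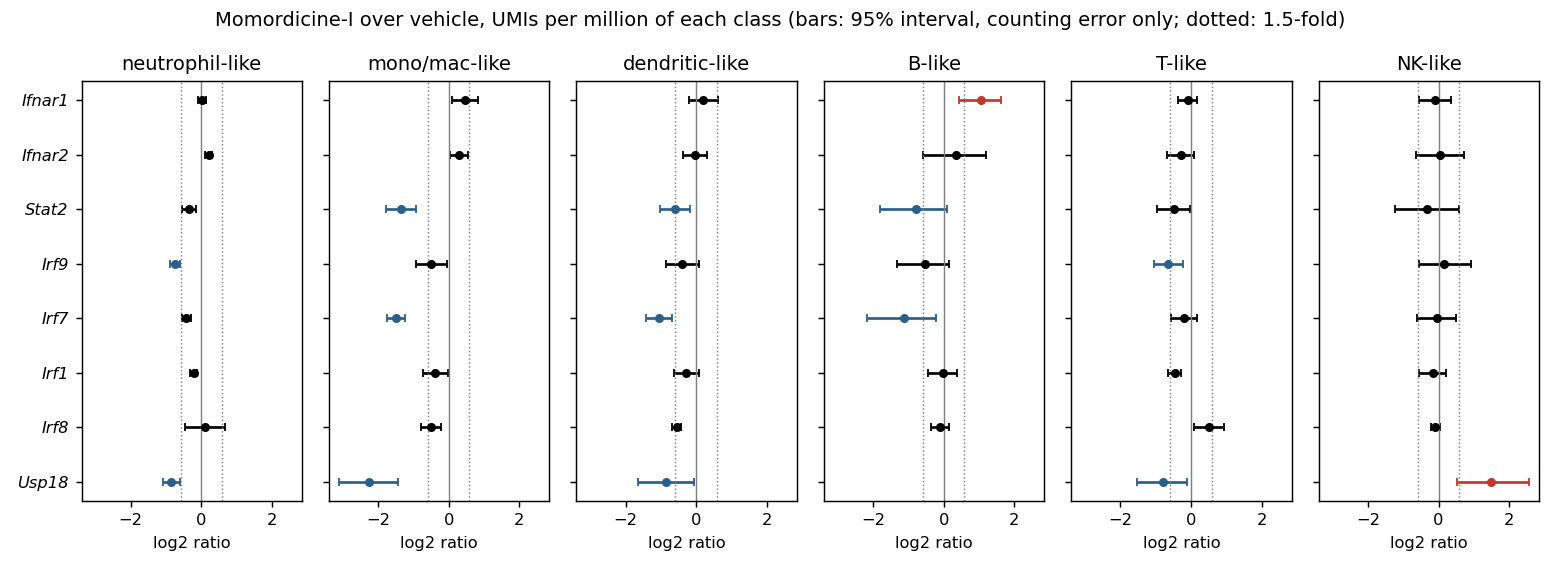
Log2 ratio of Momordicine-I over vehicle for the 8 genes in 6 cell classes; points are ratios of CPM, bars 95% intervals for counting error, dotted lines 1.5-fold. Blue points are lower and red points higher by 1.5-fold; the receptor chains lie between -0.30 and 0.46 outside B-like cells, and Usp18 lies left of 0 in 4 classes and right of it in NK-like cells, at 1.47.

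By class, the count of members lower by 1.5-fold was 2 of 8 in neutrophil-like cells (Irf9 and Usp18), beside 4.2% of 10627 genes, with none higher, beside 13.7%. Monocyte and macrophage-like cells had 3 of 8 lower (Stat2, Irf7 and Usp18), beside 13.5% of 8957 genes, and none higher, beside 8%. Dendritic-like cells had the same 3 lower, beside 8.11% of 8828 genes, and none higher, beside 11.6%, but without the highest cell of each gene none was lower. With 8 members the counts are small, and no test of them was made.

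In B-like cells 2 of 7 measured members were lower (Stat2 and Irf7), beside 17.3% of 7178 genes, and Ifnar1 was higher, beside 11.5%, so these counts are near the background. T-like cells had 2 of 8 lower (Irf9 and Usp18), beside 9% of 9825 genes, and none higher, beside 9.56%. The T-like count was 0 at 5% mitochondrial UMIs, 0 with 1 more marker required, and 1 with Leiden clusters or thinned cells. NK-like cells had none of 8 lower, beside 10.6% of 7632 genes, and Usp18 higher, beside 8.45%. The median log2 ratio of the members was -0.28 in neutrophil-like, -0.50 in monocyte and macrophage-like, -0.47 in dendritic-like, -0.09 in B-like, -0.38 in T-like and -0.07 in NK-like cells. The median over all measured genes was 0.16, -0.01, 0.05, -0.03, 0.02 and -0.06 in these classes, so neutrophil-like ratios are against a shift of 0.16.

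Markers of other cells moved with some of these values. In monocyte and macrophage-like cells plasma cell markers (5 genes, none at 0) made up 0.0408% of UMIs with Momordicine-I and 0.280% with vehicle, tumour epithelial markers (9 genes, none at 0) 0.00839% and 0.0684%, and cDC2 markers (6 genes, 1 at 0) 0.00694% and 0.0452%. Fibroblast markers (6 genes, 1 at 0) made up 0.0114% and 0.000146% there, and cDC1 markers (6 genes, 1 at 0) 0.000436% and 0.00336%. Their own markers made up 0.783% and 0.811%, and neutrophil markers 0.475% and 0.444%. In B-like cells plasma cell markers made up 0.0218% and 0.0798% and B cell markers 0.627% and 0.647%. In T-like cells NK markers (8 genes, none at 0) made up 0.00859% and 0.0590%. The part of these markers in the ratios was not tested.

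The type I target genes were tallied beside their regulators. Of the type I target genes on a list of 25, 23 are in the files. In monocyte and macrophage-like cells 18 of 22 measured ones were lower and none higher (median log2 ratio -1.09), in neutrophil-like cells 16 of 22 and none (-0.69), in T-like cells 10 of 22 and none (-0.49), and in dendritic-like cells 9 of 22, with 1 higher (-0.36). B-like cells had 14 of 15 lower (-1.36). NK-like cells had 1 of 17 lower and 5 higher (0.04). Over all genes, the shares lower were 13.5% in monocyte and macrophage-like, 4.2% in neutrophil-like and 9% in T-like cells. They were 8.11% in dendritic-like, 17.3% in B-like and 10.6% in NK-like cells. The shares higher were 11.6% in dendritic-like and 8.45% in NK-like cells. No count of target genes in dendritic-like cells, here or for interferon gamma targets, was repeated without the vehicle cell that held most Irf7 UMIs. Rsad2, an antiviral enzyme, was at 33.1 CPM with Momordicine-I and 176 CPM with vehicle in monocyte and macrophage-like cells (ratio 0.188), and at 365 and 551 CPM in neutrophil-like cells (ratio 0.663). Slfn5, an interferon-induced gene, was at 2.32 and 109.5 CPM in B-like cells, on 1 and 166 UMIs.

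The ISG15 system on which USP18 acts had 4 genes on its list. In neutrophil-like cells 2 of 4 were lower (median -0.64), beside 4.2% of all genes. Isg15 itself was at 247 CPM with Momordicine-I and 408 CPM with vehicle (ratio 0.606, 0.579 to 0.634). Herc6, its ligase in mice, was at 27.9 and 46.5 CPM (ratio 0.600). Isg15 of monocyte and macrophage-like cells was at 61.0 and 153 CPM (ratio 0.398). In NK-like cells none of 3 measured genes was lower, beside 10.6% of all genes. Herc6 was higher, beside 8.45%, at 34.2 and 22.6 CPM (ratio 1.51), but the interval of 0.873 to 2.73 included 1.

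The median of the receptor's signalling partners, by contrast, stayed near a ratio of 1 in each class. Of 19 partners, between 15 and 18 were measured per class, at most 2 were lower and at most 1 higher. The median log2 ratios lay between -0.18 and 0.02. Over all genes, 4.2% to 17.3% were lower and 8% to 13.7% higher per class, so these counts are near or below the background. Jak1, the kinase that IFNAR2 carries, was at 295 CPM with Momordicine-I and 270 CPM with vehicle in neutrophil-like cells (ratio 1.10). Socs3, another feedback inhibitor of JAK-STAT signalling, was at 191 and 330 CPM in T-like cells (ratio 0.580, 0.517 to 0.650), and at 1038 and 1034 CPM in neutrophil-like cells (ratio 1.00).

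Interferon gamma target genes were lower in 10 of 15 measured cases in monocyte and macrophage-like cells (median -0.86), 7 of 16 in dendritic-like, 5 of 15 in T-like, 5 of 13 in B-like, 2 of 13 in neutrophil-like and 1 of 13 in NK-like cells, while 2 were higher in T-like and 2 in NK-like cells. The shares of all genes lower in these classes, in the same order, were 13.5%, 8.11%, 9%, 17.3%, 4.2% and 10.6%, and 9.56% and 8.45% were higher in T-like and NK-like cells. Of 13 interferon genes, only Ifng, the gamma interferon, reached 20 UMIs in any class. It was at 101.1 CPM with Momordicine-I and 166 CPM with vehicle in NK-like cells (ratio 0.611, 0.479 to 0.779), and at 40.6 and 54.2 CPM in T-like cells (ratio 0.749). For 11 of the 13 no UMI was counted in any filtered cell. Of 5 to 7 upstream sensors measured per class, at most 1 was lower and at most 1 higher. Over all genes, 4.2% to 17.3% were lower and 8% to 13.7% higher per class. Among the sensors Ikbke, a kinase, was at 21.2 and 50.7 CPM in T-like cells (ratio 0.417). Tlr7, an RNA sensor, was at 16.6 and 9.34 CPM in neutrophil-like cells (ratio 1.78, 1.40 to 2.28).

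**Figure D4:**
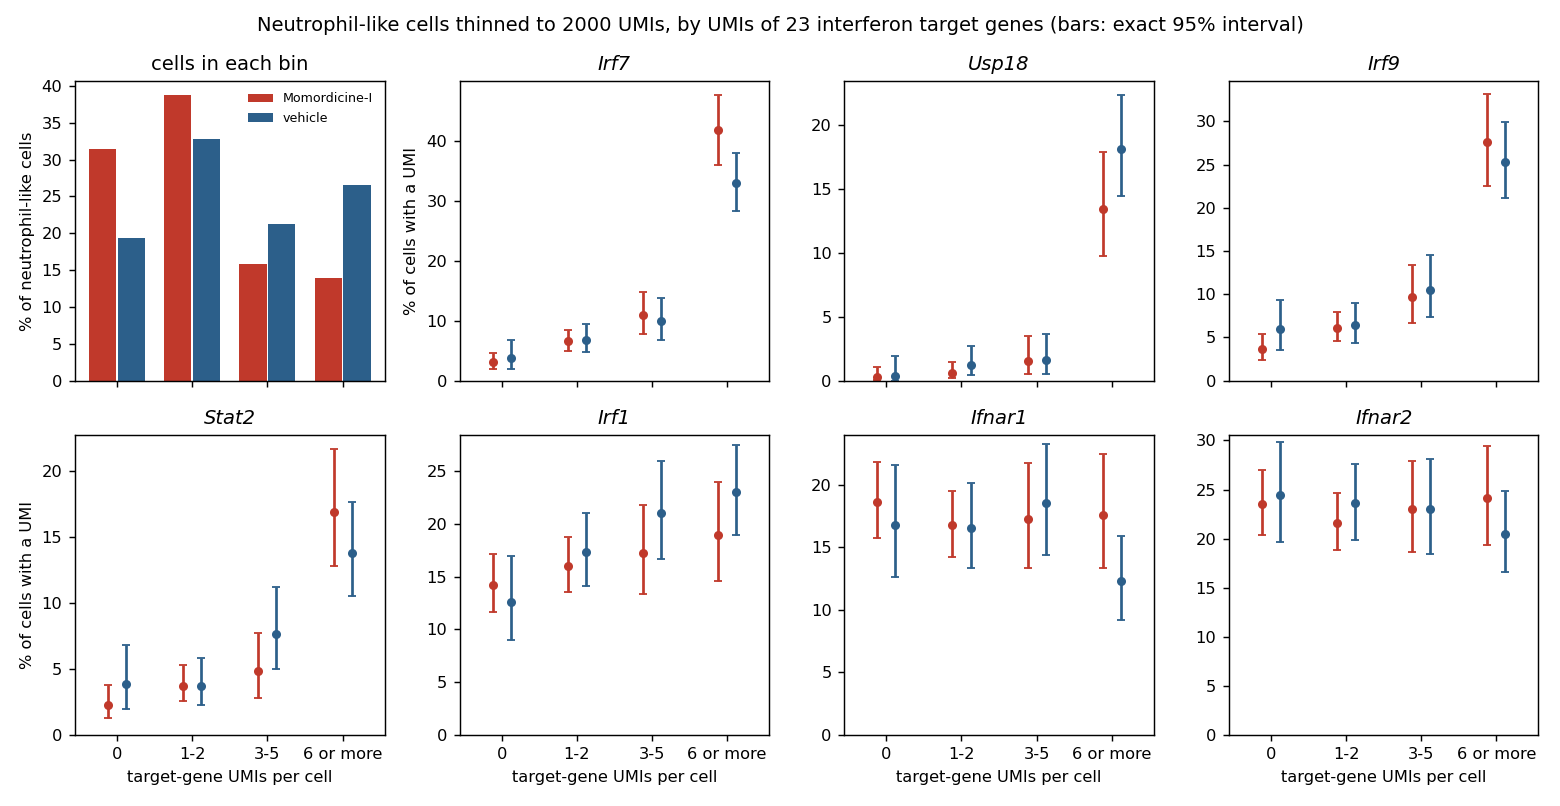
Neutrophil-like cells thinned to 2000 UMIs and grouped by how many UMIs of 23 type I target genes they hold; the bar panel gives the percent of cells in each group, and the other panels the percent of those cells with a UMI of the named gene, with exact 95% intervals. Red is the Momordicine-I library and blue the vehicle library. Irf7, Usp18, Irf9 and Stat2 climb with the target genes in both libraries, while Ifnar1 and Ifnar2 do not.

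Neutrophil-like cells were numerous enough to follow the members by cell. Each of 2079 Momordicine-I and 1473 vehicle cells was thinned to 2000 UMIs and grouped by its UMIs of the 23 type I target genes. Cells with 6 or more made up 13.9% with Momordicine-I and 26.5% with vehicle, and cells with none 31.5% and 19.4%. Within the group of 6 or more, an Irf7 UMI was found in 41.7% and 33.0% of cells, and within the group of none in 3.06% and 3.85%. For Usp18 the shares were 13.4% and 18.2% at 6 or more and 0.306% and 0.350% at none. Ifnar1 did not climb, with 17.6% and 12.3% at 6 or more and 18.7% and 16.8% at none. Within each group the intervals of the libraries overlapped for Irf7 and for Usp18.

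Detection in the same cells followed the same division. Of the 230 thinned Momordicine-I cells with an Irf7 UMI, 28 also had a Usp18 UMI, against 51 of all 2079, and in the vehicle library 34 of 204 did, against 83 of all 1473. Stat2 and Usp18 were found together in 14 and 24 cells, of 110 and 107 cells with a Stat2 UMI. For the receptor no such excess was seen: 38 of the 230 and 34 of the 204 Irf7 cells had an Ifnar1 UMI, against 365 of 2079 and 234 of 1473.

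Over 14 profiles, 7 classes (the 6 and basophil-like cells) in each library, the genes whose log2(CPM + 10) was most like that of a member were named by Pearson correlation. The profiles of 1 library share its preparation and depth, so these are descriptions. For Irf7 they were Nsmce2, Ifit2 and Ifit3 (r = 0.945, 0.921 and 0.914), for Usp18 Ifit2, Eif5a and Rgs3 (0.847, 0.829 and 0.827), and for Irf8 Slamf7, Mavs and Cdv3 (0.95, 0.939 and 0.923). Ifnar1 was most like Lyrm1, Stat3 and Zc3h7a (0.944, 0.928 and 0.897) and Ifnar2 most like Fam217b, Lst1 and Pilra (0.967, 0.965 and 0.961). Stat2 was most like Usp22, Insig1 and Tram2 (0.906, 0.889 and 0.889), Irf9 like Map3k8 and D1Ertd622e (0.888 and 0.869), and Irf1 most like Plcxd2, Eif4ebp2 and Cdk12 (0.942, 0.933 and 0.925). Among the members themselves Stat2 with Irf9 (0.793), Stat2 with Irf7 (0.791) and Irf7 with Usp18 (0.778) were most alike, and Ifnar2 with Irf1 least (-0.574). The 2 receptor chains had r = -0.01.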

How the data were processed

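For both libraries the authors deposited matrices of unnormalised UMI counts by gene and cell barcode. They were made with Cell Ranger 6.0.2 and the mm10 genome per the submitters' processing notes, from 10x Genomics 3' libraries per the labels' protocols. The Momordicine-I matrix held 41804810 UMIs in 4693 barcodes and the vehicle matrix 33998491 UMIs in 3642. Whether strand or introns were used in counting is not given in the sources used here.

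Cells with at least 200 detected genes and at most 10% mitochondrial UMIs were kept. A cell entered a class when it met the marker minimum of exactly 1 lineage and held at most 1% neutrophil-marker UMIs. The minimum was 3, 4 or 5 distinct markers, by lineage. Neutrophil-like cells had no other lineage, at least 5 neutrophil markers and at least 2% of UMIs from them. Il1b and Hdc were left out of these UMI shares of the gate. Sub-classes needed 3 markers. Cells of more than 1 lineage were left out (169 Momordicine-I, 165 vehicle), as were cells of a lineage with neutrophil RNA (345 and 256) and cells of no lineage (632 and 483). Doublets were otherwise removed only in an alternative, since the automatic threshold of Scrublet marked 1 and 2 cells.

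UMIs were summed per class and library in Python 3.11.15 with numpy 2.4.6 and scipy 1.17.1, and given as CPM. Shares have Clopper-Pearson, levels Poisson and ratios conditional binomial intervals, all exact at 95% and for counting error only. A gene at 0 was set against a floor of 3 counts. With 1 library per group there was no test. The scripts were tested on simulated data.

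All 8 members are named in each class of at least 50 cells in both libraries. NK-like, naive T-like, gamma-delta-like and all dendritic sub-classes fall short of this and are given as well. Other genes come from lists, at most 4 per list by highest CPM, and the 3 genes most like each member among those with at least 200 UMIs. Some items that these rules name are not reported here. The members and lists were chosen with earlier results of these data known, and the limits of the gate were set after marker levels were seen. Of the 14 alternatives tried, 2 were chosen after seeing the data: at most 0.5% neutrophil-marker UMIs, and leaving out shared barcodes. Gene positions come from GENCODE of GRCm38 and promoters from RefSeq, GRCm38.p6.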

Additional observations from a re-analysis of the deposited data

Results flagged for a closer look

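The log2 ratio of Usp18 ran in opposite directions between classes: it was 1.47 in NK-like cells, against -0.85 in neutrophil-like, -2.25 in monocyte and macrophage-like, -0.84 in dendritic-like and -0.81 in T-like cells. The difference between classes was not tested, since each group is 1 library. The NK-like value rests on 50 Momordicine-I and 11 vehicle UMIs.

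The log2 ratio of Irf1 was 0.91 in gamma-delta-like cells and -1.13 in Treg-like cells, again in opposite directions, and this difference was not tested either. The vehicle gamma-delta-like value rests on 25 UMIs in 33 cells.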

How the results depend on the processing

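No paired analysis was possible because each group is 1 library. The count of members lower by 1.5-fold changed by more than 1.5 times as follows. In neutrophil-like cells 2 became 1 with thinned cells and 0 at 2-fold. In monocyte and macrophage-like cells 3 became 6 at 5% mitochondrial UMIs and 5 with the mean of the cells' CPM. In dendritic-like cells 3 became 1 with 1 more marker, 1 with Leiden clusters, 0 with thinned cells, 0 without each gene's highest cell and 1 at 2-fold. In B-like cells 2 became 1 at 2-fold. In T-like cells 2 became 0 at 5% mitochondrial UMIs, 0 with 1 more marker, 1 with Leiden clusters, 1 with thinned cells and 0 at 2-fold. In NK-like cells 0 became 1 at 5% mitochondrial UMIs. The cause was not tested, except that 2-fold is a stricter limit.

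Of 707 alternative values of 69 ratios, 666 stayed within the interval of the main value, 40 moved outside it, and 1 that was past 1.5-fold changed sign: Irf7 of dendritic-like cells, at 0.22 without the highest cell of each library. Ratios short of 1.5-fold also changed sign in some alternatives. Ifnar1 of monocyte and macrophage-like cells, at 0.46, was -0.02 with Leiden clusters and -0.39 with thinned cells. Irf8 of T-like cells, at 0.51, was -0.16 with 1 more marker, and without the highest cells it kept its sign at 0.07. Irf8 of Treg-like cells, at 0.48, was -0.43 with 1 more marker, -0.24 with the mean of the cells' CPM and -0.56 without the highest cells. Irf7 of B-like cells, past 1.5-fold at -1.12, kept its sign but was -0.02 at 5% mitochondrial UMIs. Usp18 of neutrophil-like cells was lower by 1.5-fold in all 11 alternatives (-1.26 to -0.77), as were Stat2 (-1.61 to -0.89) and Irf7 (-1.69 to -1.06) of monocyte and macrophage-like cells. Usp18 of NK-like cells was higher in all 10 (1.04 to 2.01). Depth limits Usp18 most, with 592 and 864 UMIs over all cells.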
